A study of Rattus norvegicus with 9 samples.

Results

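The effect of raising against lowering TCF7L2 was followed in 6 of the 9 RNA-seq libraries of this series, 3 from rat heart muscle cells given lenti-TCF7L2 and 3 from cells given lenti-shTCF7L2. Membership followed the sample titles alone and used no measured value. The cells were neonatal rat cardiomyocytes (NRCMs), the contractile cells of the heart, in primary culture. They came from SD (Sprague Dawley) rats aged 1 to 2 days, and the control cells are labelled wild type. Lenti-TCF7L2 is a lentivirus that carries TCF7L2, titled WT by the submitters, to overexpress it. Lenti-shTCF7L2 carries a short hairpin RNA (shRNA) against it, and lenti-NC is the control lentivirus, whose insert the labels do not give. All cultures met virus for 16 h and stayed in medium with 10% fetal bovine serum for another 48 h, so every group shares these times and this medium. Equal times do not show that the groups were infected equally. The labels give neither the promoter of the vectors nor the species of the TCF7L2 insert or the hairpin sequence. They also do not say whether the 3 libraries of a group are separate cultures, so the p-values below measure the spread between these samples, which may be technical. The 3 lenti-NC libraries took no part in the fit and served to place each gene: a changed gene is called graded here when all 3 control libraries lay, without overlap, between the 3 libraries of one TCF7L2 virus and the 3 of the other.

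TCF7L2 is a DNA-binding protein of the T cell factor and lymphoid enhancer factor (TCF/LEF) family, which carries the canonical Wnt signal to the DNA. When a Wnt ligand binds its Frizzled receptor, β-catenin escapes degradation, enters the nucleus and binds TCF/LEF proteins already on the DNA. Target genes are then switched on, while without β-catenin the same proteins hold Groucho corepressors of the TLE family. The pathway shapes the heart in the embryo and is reactivated in heart disease. The title of the series places carbonic anhydrase 2 (Car2) downstream of TCF7L2 in diabetic heart disease.

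The 6 libraries held between 15085922 and 16478295 expected counts each, and 11669 genes entered the test. Replicates correlated at 0.997 (Pearson's r of log2 CPM) in every lenti-shTCF7L2 pair and at 0.949 to 0.992 in the lenti-TCF7L2 pairs. Lenti-TCF7L2 replicate 3 stood apart by gene length, with short genes high and long genes low, as described at the end. Defining markers of cardiomyocytes were abundant in every library, so the labelled cell type was present. Summed over 10 of them, the level was 42270 to 43900 CPM with lenti-shTCF7L2, 45240 to 47350 with lenti-NC and 19960 to 24640 with lenti-TCF7L2, where CPM are counts scaled to library size, so that libraries can be compared. Of these 10, 9 were called lower with lenti-TCF7L2. Markers of other heart cells were present too. Summed over 8 endothelial markers the level was 80.2 to 81.9 CPM with lenti-shTCF7L2, 76.0 to 98.6 with lenti-NC and 146.8 to 214.4 with lenti-TCF7L2 (6 of 8 called higher). For 7 fibroblast markers it was 33110 to 34810, 30070 to 31110 and 32950 to 39130 CPM in the same order (4 of 7 called higher). For 6 macrophage markers it was 32.1 to 34.6, 33.8 to 35.9 and 63.0 to 71.8 CPM, with 3 of the 5 tested called higher. For 5 epicardial markers it was 77.5 to 83.0, 101.1 to 121.6 and 134 to 154.7 CPM, with 2 of the 4 tested called higher and Upk3b at 0 in all libraries. Smooth muscle markers summed to 1611 to 2219 CPM over all 9 libraries and Schwann cell markers to 4.05 to 5.84. These are bulk cultures, in which fewer cells of a type and less RNA per cell cannot be told apart.

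Tcf7l2 (Entrez gene 679869) itself followed the labels. Its levels were 141, 204 and 85.6 CPM with lenti-TCF7L2, 40.2, 36.5 and 34.2 with lenti-NC and 25.7, 30.4 and 26 with lenti-shTCF7L2. The 3 groups did not overlap, and the order was hairpin, control, overexpression. Tcf7l2 was higher with lenti-TCF7L2 than with lenti-shTCF7L2 by 2.40 on the log2 scale (SE 0.31, edgeR quasi-likelihood test, adjusted p = 0.0033 over all tested genes). On the log2 scale from the hairpin mean (0%) to the overexpression mean (100%), the control mean lay at 18.2%. This place of the control between the groups is given for other genes below, always on the log2 scale. Most of the span between the 2 groups compared was thus on the overexpression side. Within lenti-TCF7L2, replicate 2 was the highest and replicate 3 the lowest.

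Car2 (Entrez gene 54231), an enzyme that interconverts carbon dioxide and bicarbonate, had few counts in these libraries. They were 31, 29 and 41 expected counts with lenti-TCF7L2, 29, 17 and 25 with lenti-NC and 20, 16 and 27 with lenti-shTCF7L2. The overexpression libraries all lay above the hairpin libraries, and the control libraries overlapped both. The log2 difference of 0.59 (SE 0.26, adjusted p = 0.155) did not pass the threshold of 0.05.

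**Figure D1:**
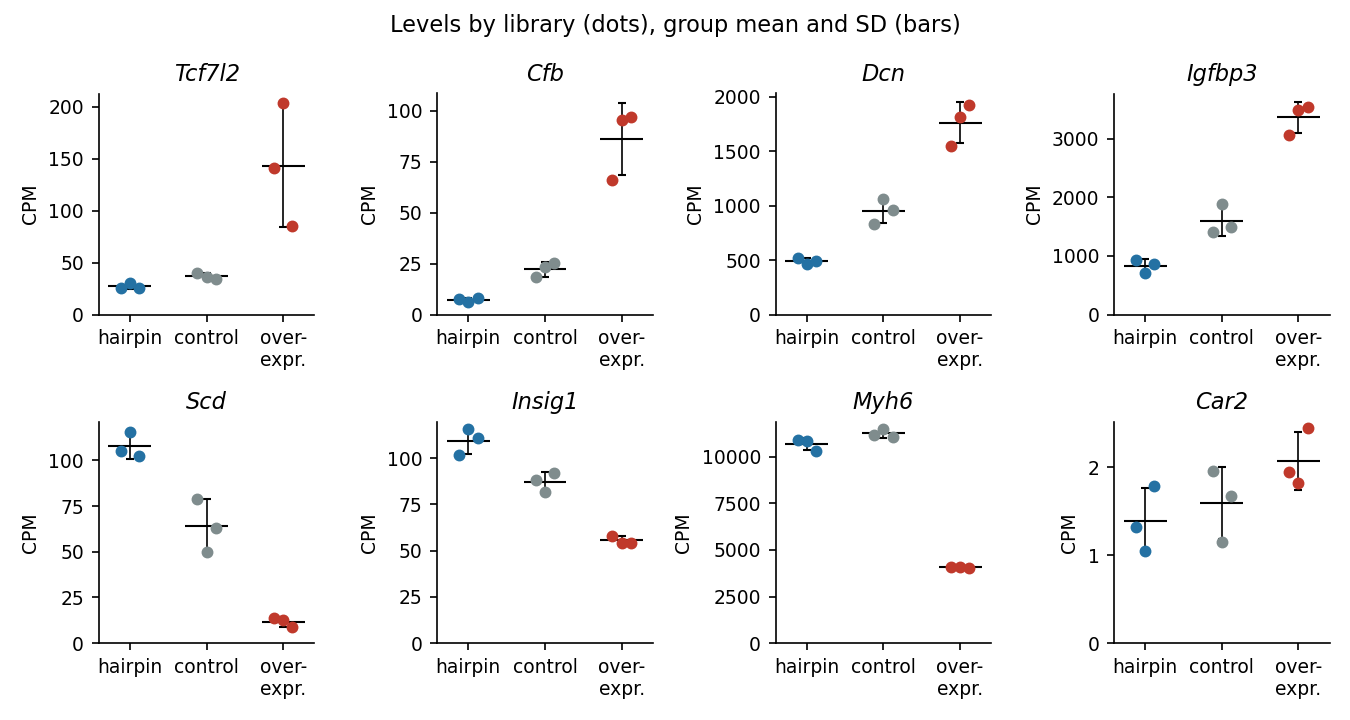
Level in CPM (y axis, linear, from 0) of 8 genes in each library (dots) of the hairpin, control and overexpression groups, with the group mean and SD as bars (n = 3 libraries). For Tcf7l2, Cfb, Dcn and Igfbp3 the control lies between the groups and overexpression is highest, for Scd and Insig1 the order is reversed, for Myh6 the control lies above both groups, and Car2 stays under 3 CPM.

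Between the 2 viruses 2644 of 11669 tested genes (22.7%) differed, 1557 higher with lenti-TCF7L2 (13.3%) and 1087 lower (9.32%). At least 2-fold differences were reached by 568 of the higher and 284 of the lower genes. At an unadjusted p under 0.05 there were 4298 genes. The count depended on single libraries. It was 1475, 3529 and 4770 without lenti-TCF7L2 replicate 1, 2 and 3, and 1220, 1129 and 1093 without lenti-shTCF7L2 replicate 1, 2 and 3. In those 6 fits no gene called both times changed its direction. The fits share most libraries and the groups of called genes did not overlap, so another outcome was hardly possible. All 2644 called genes had groups that did not overlap, a separation that 47.5% of all tested genes showed.

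Of the 2644 called genes, 816 were graded with Tcf7l2 (30.9%). The 3 groups of a graded gene are apart by definition, so that separation, where named below, adds no support. The graded genes were 536 that rose with the Tcf7l2 level (4.59% of tested genes, 34.4% of the higher calls) and 280 that fell with it (2.4% of tested genes, 25.8% of the lower calls). Over all tested genes, called or not, 953 (8.17%) had the control libraries placed this way. A gene chosen for a wide gap between the 2 viruses leaves more room between them, so the share among called genes is a description and was not tested. Without lenti-NC replicate 1, 2 and 3 the graded genes numbered 995, 967 and 954. Graded falls numbered 163 and 464 without lenti-TCF7L2 replicate 1 and 3, and 178, 163 and 152 without lenti-shTCF7L2 replicate 1, 2 and 3. The control sat nearer the hairpin than the overexpression group in 400 of the 536 rising genes (74.6%) and in 246 of the 280 falling genes (87.9%). Its median place was 39.8% of the way from hairpin to overexpression in the rising genes (quartiles 28.9% and 50.2%) and 29.9% in the falling genes (20.7% and 42.6%), where Tcf7l2 had 18.2%. The median rising gene lay 0.36 (log2) above the hairpin in the control and another 0.54 higher with overexpression. For the falling genes these medians were -0.23 and -0.53. Another 225 called genes (8.51% of called genes) had all control libraries above all 6 others, and 125 (4.73%) had them below. Among all tested genes these were 894 (7.66%) and 754 (6.46%).

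**Figure D2:**
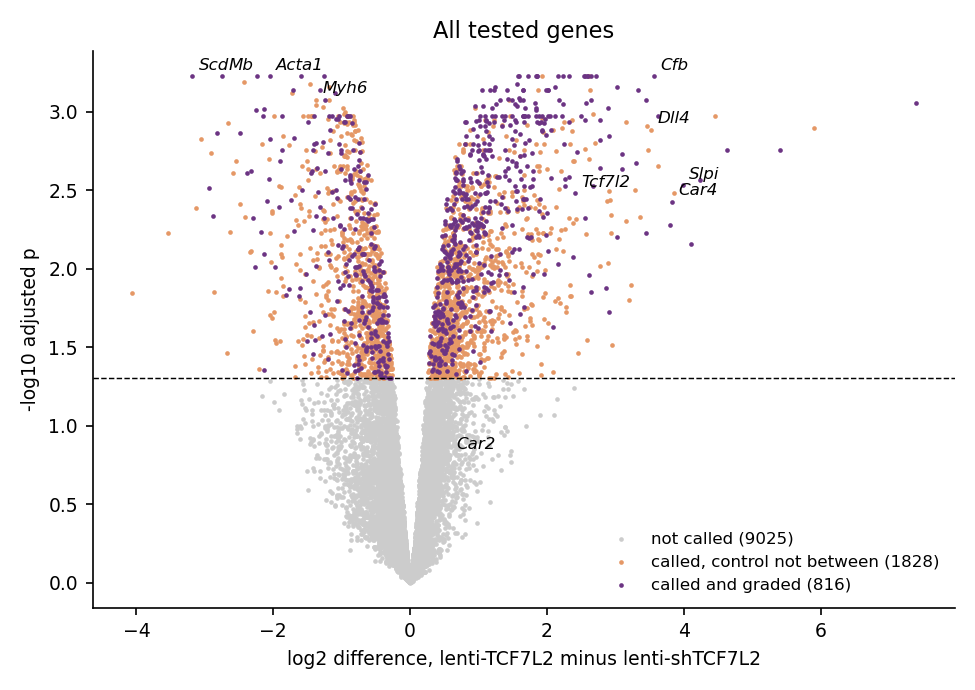
Each dot is 1 of 11669 tested genes, with the log2 difference between lenti-TCF7L2 and lenti-shTCF7L2 on the x axis and the negative log10 of the adjusted p on the y axis (n = 3 libraries per group). The dashed line is the threshold of 0.05; grey genes were not called, orange genes were called with the control elsewhere, and the 816 purple genes were called and graded.

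TCF/LEF proteins recognise the site CTTTGAT, which reads ATCAAAG on the other strand. It was searched on both strands of the RefSeq promoter windows of rat build GRCr8, each from 250 bases before to 50 after a gene's start, and 9504 of the 11669 tested genes had a window. The site was in 206 of these windows (2.17%), in 10 of 416 windows of rising graded genes (2.4%) and in 5 of 232 of falling ones (2.16%). With the related site CTTTGAA counted too, the shares were 5.45%, 6.01% and 5.17%. The graded genes therefore held the site about as often as any tested gene. Cxcl12 and Hdc are shown here because they are rising graded genes with a match. Cxcl12 is a chemokine that draws in cells bearing Cxcr4, and Hdc makes histamine from histidine. The bases before each start are given on the gene's strand, 5′ to 3′, with the match in capitals. The match is a description of these letters and not a binding site shown by these data. The Cxcl12 stretch is chr4:152060531-152060780 on the plus strand, with the match 198 bases before the start. The Hdc stretch is chr3:134318705-134318954 on the minus strand, with the match 151 bases before it.
Cxcl12: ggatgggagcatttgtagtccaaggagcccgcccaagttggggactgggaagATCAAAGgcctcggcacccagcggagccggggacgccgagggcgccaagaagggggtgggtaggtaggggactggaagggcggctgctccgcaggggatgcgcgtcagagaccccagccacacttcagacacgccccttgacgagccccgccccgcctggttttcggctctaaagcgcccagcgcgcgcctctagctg
Hdc: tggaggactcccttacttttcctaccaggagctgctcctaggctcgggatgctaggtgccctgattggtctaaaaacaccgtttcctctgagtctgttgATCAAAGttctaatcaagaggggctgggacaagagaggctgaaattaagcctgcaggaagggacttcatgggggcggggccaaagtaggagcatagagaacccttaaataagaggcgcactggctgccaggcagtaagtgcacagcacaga
Levels of Cxcl12 (Entrez gene 24772) were 1056, 1246 and 1336 CPM with lenti-TCF7L2, 486, 556 and 513 with lenti-NC and 339.6, 328 and 343 with lenti-shTCF7L2. The control libraries lay closer to the hairpin, and no group overlapped another (log2 difference 1.86, SE 0.11, adjusted p = 0.000591). Hdc had 8.9, 10.4 and 12.7 CPM with lenti-TCF7L2, 4.25, 5 and 4.3 with lenti-NC and 2.19, 2.62 and 2.12 with lenti-shTCF7L2, in the same order and again without overlap (log2 difference 2.21, SE 0.19, adjusted p = 0.00106). Hdc was picked after its value was seen.

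The 12 largest graded rises were taken among genes whose higher group had a mean of at least 50 counts. Aoc1, the diamine oxidase that breaks down histamine, went from 0, 0 and 1 counts with the hairpin through 2, 3 and 5 in the control to 58, 87 and 97 with overexpression. The ratio of overexpression to hairpin was 231 (95% interval 41.1 to 9171, exact binomial, counting error only). Lrg1, a secreted leucine-rich glycoprotein of the acute-phase response, had 2, 0 and 1 counts, then 3, 4 and 7, then 35, 47 and 69, a ratio of 48.1 (16.1 to 236). For both genes the hairpin and control counts were so few that the grading rests on single counts. Slpi, an inhibitor of leukocyte proteases, had 119, 170.0 and 409 CPM with lenti-TCF7L2, 21, 32.7 and 24.2 with lenti-NC and 16.3, 12.2 and 16.1 with lenti-shTCF7L2. Its overexpression replicate 3 was far above the other 2, and all 3 groups were apart (log2 difference 3.98, SE 0.50, adjusted p = 0.00295). Elf5, an ETS family transcription factor, rose by 3.62, and Csf2rb, the β chain shared by receptors for GM-CSF, IL-3 and IL-5, by 3.44. Csf2rb levels were 131, 233 and 149.9 CPM with lenti-TCF7L2, 37.8, 48.7 and 35 with lenti-NC and 17.4, 13.3 and 17.1 with lenti-shTCF7L2. The remaining rises in this set were Car4 (3.83), Cfb (3.57), Chi3l1 (3.33), Tmem255a (3.30), C4a (3.09), Nog (3.02) and Hp (2.90), all log2 differences that passed the test.

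The 12 largest graded falls were taken in the same way. Scd (Entrez gene 246074), the desaturase that makes monounsaturated fatty acids, had 14, 12.7 and 8.65 CPM with lenti-TCF7L2, 79, 49.9 and 63.3 with lenti-NC and 105, 116 and 102 with lenti-shTCF7L2. It was low in every overexpression library, and the control lay 23.5% of the way down from the hairpin (log2 difference -3.18, SE 0.19, adjusted p = 0.000591). Mb, myoglobin, the oxygen store of muscle, had 28.1, 18.9 and 24.8 CPM with lenti-TCF7L2, 113, 134 and 118 with lenti-NC and 168, 149 and 167 with lenti-shTCF7L2 (log2 difference -2.74, SE 0.16, adjusted p = 0.000591). Here the control stood close to the hairpin. Scd2 fell by 2.14, Pnpla3, a lipid droplet protein, by 2.49, and Mfsd2a, a carrier of lysophosphatidylcholine, by 2.26. Mfsd2a was low, at 1.32, 1.07 and 1.13 CPM with lenti-TCF7L2, 3.31, 2.3 and 2.62 with lenti-NC and 5.1, 6.34 and 5.58 with lenti-shTCF7L2. Sypl2, a membrane protein of the muscle triad, fell by 2.23. Smim5 (-2.89), the low-affinity IgE receptor Fcer2 (-2.82), the olfactory receptor Olr59 (-2.38), the transcriptional coregulator Cited1 (-2.15) and the sodium-proton exchanger Slc9a3 (-2.14) passed as well. Col4a3, a basement membrane collagen, had 14.4, 17.9 and 2.51 CPM with lenti-TCF7L2, 42.8, 39.6 and 45.8 with lenti-NC and 54.9, 50.5 and 48.8 with lenti-shTCF7L2. Its difference of -2.14 (edgeR adjusted p = 0.0441) included the low value of lenti-TCF7L2 replicate 3, without which the call was kept. The call was lost at an adjusted p = 0.114 without lenti-TCF7L2 replicate 1 and at 0.126, 0.126 and 0.121 without lenti-shTCF7L2 replicates 1, 2 and 3.

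**Figure D3:**
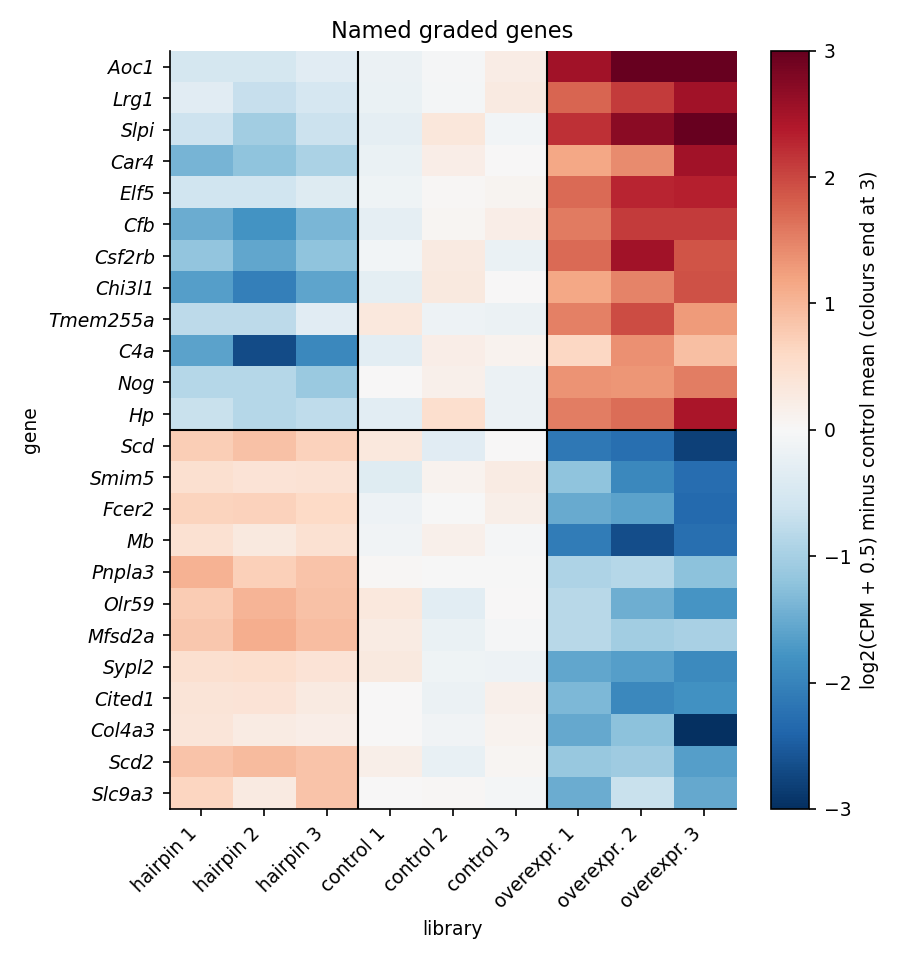
Colour gives log2(CPM + 0.5) minus the mean of the 3 control libraries, for each of the 9 libraries (columns) and the 12 largest graded rises and 12 largest graded falls (rows); colours end at 3. The hairpin and overexpression columns have opposite colours in every row, by the way the genes were chosen, and the overexpression columns are the stronger in most.

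Complement genes were prominent among the graded rises. Complement is a cascade of plasma proteins that tags particles for uptake and punctures membranes. Of 19 tested members 10 were called higher with lenti-TCF7L2 and 2 lower, and 9 of the 10 were graded, against 13.3% called higher and 4.59% graded and higher among all tested genes. The list's median log2 difference was 1.07, and that of all tested genes was 0.0011. Cfb (Entrez gene 294257), factor B of the alternative pathway, had 65.9, 95.6 and 96.9 CPM with lenti-TCF7L2, 18.4, 23.2 and 25.4 with lenti-NC and 7.62, 6.08 and 8.23 with lenti-shTCF7L2. Each group was apart, with the control a little under the middle (log2 difference 3.57, SE 0.21, adjusted p = 0.000591). Serping1, the inhibitor of the C1 proteases, had 657, 762 and 841 CPM with lenti-TCF7L2, 300.2, 359.7 and 347 with lenti-NC and 138, 107 and 122 with lenti-shTCF7L2 (log2 difference 2.64, SE 0.14, adjusted p = 0.000591). C6, which joins the membrane attack complex, had 37.2, 41.3 and 47.7 CPM with lenti-TCF7L2, 19.9, 25.8 and 23.4 with lenti-NC and 7.81, 6.54 and 7.23 with lenti-shTCF7L2 (log2 difference 2.56, SE 0.14, adjusted p = 0.000591). In both, the control lay past the middle. C1s, a protease that starts the classical pathway, and C2, one of its substrates, rose by 1.56 and 1.68, both picked after their values were seen. C4a rose by 3.09 and C4b by 2.68, but these near-identical copies share reads and their separate values are uncertain. C3, the hub of the cascade, had 538, 678 and 448 CPM with lenti-TCF7L2, 477, 594 and 503 with lenti-NC and 302, 219.9 and 278 with lenti-shTCF7L2. It was called higher (1.07, adjusted p = 0.00933), while its control libraries overlapped the overexpression group. The 2 lower genes, Cd55 (-1.43) and Cd59, are membrane inhibitors that shield cells from the cascade. C3, C4b, Cd55 and Cd59 were named after their values were seen, and 1 gene was called lower without lenti-TCF7L2 replicate 1 or lenti-shTCF7L2 replicate 1 or 3. Cd55 had 14.5, 15.8 and 12.7 CPM with lenti-TCF7L2, 13.2, 9.47 and 11.6 with lenti-NC and 41.5, 39.2 and 36.3 with lenti-shTCF7L2, so the hairpin stood apart above both other groups.

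Acute-phase and secreted injury proteins were higher in 17 of 18 tested members, 10 of them graded, and lower in 0 (median 1.72). Among all tested genes 13.3% were called higher and 4.59% were graded and higher. Lbp, which binds bacterial lipopolysaccharide, had 315, 384 and 381 CPM with lenti-TCF7L2, 152, 177 and 179 with lenti-NC and 76.9, 69.2 and 72.7 with lenti-shTCF7L2 (log2 difference 2.32, SE 0.11, adjusted p = 0.000591). Chi3l1, a chitinase-like glycoprotein, had 243, 302 and 409.9 CPM with lenti-TCF7L2, 87.7, 132 and 109 with lenti-NC and 33.8, 25.8 and 35.7 with lenti-shTCF7L2 (log2 difference 3.33, SE 0.23, adjusted p = 0.000724). In both genes the control was near the middle. Spp1, osteopontin, had 370.4, 347 and 358 CPM with lenti-TCF7L2, 143, 130.4 and 152 with lenti-NC and 105, 109 and 112 with lenti-shTCF7L2, with the control nearer the hairpin (log2 difference 1.73, SE 0.075, adjusted p = 0.000591). Haptoglobin (Hp), the scavenger of free haemoglobin, had 16.9, 18.9 and 32.5 CPM with lenti-TCF7L2, 4.32, 8.05 and 4.83 with lenti-NC and 3.31, 2.81 and 3.05 with lenti-shTCF7L2, and lipocalin 2 (Lcn2), an iron-withholding protein, had 814, 918 and 1559 CPM with lenti-TCF7L2, 445, 563 and 504 with lenti-NC and 382, 276 and 359 with lenti-shTCF7L2. Lcn2 was picked after its value was seen, and replicate 3 of lenti-TCF7L2 was the highest in both. Serpina3n, a protease inhibitor also picked afterwards, did not grade: it had 67.6, 98.9 and 122 CPM with lenti-TCF7L2, 73.5, 75.1 and 64.2 with lenti-NC and 17.9, 17.3 and 21.1 with lenti-shTCF7L2, so the control overlapped overexpression and the hairpin stood alone.

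Chemokines and cytokines were called higher in 23 of 34 tested members and lower in 2 (median 0.87), with 9 graded. The shares of all tested genes were 13.3% higher, 9.32% lower and 4.59% graded and higher. Without lenti-shTCF7L2 replicate 1, 2 or 3 the number called higher was 15 each time, and without any of these or lenti-TCF7L2 replicate 1 the number called lower was 1. Ccl3, which attracts macrophages, had 33.8, 29.1 and 36.2 CPM with lenti-TCF7L2, 12.2, 13.1 and 12.2 with lenti-NC and 7.09, 7.19 and 7.04 with lenti-shTCF7L2, 3 groups apart with tight replicates (log2 difference 2.23, SE 0.12, adjusted p = 0.000591). Il33, an alarmin released by damaged cells, and Il1rl1, its receptor, were both graded and were picked after their values were seen. Il33 had 79, 83.5 and 109 CPM with lenti-TCF7L2, 37, 39 and 34.1 with lenti-NC and 27.2, 23.7 and 26 with lenti-shTCF7L2 (log2 difference 1.83, SE 0.14, adjusted p = 0.000939). Il1rl1 had 579, 617 and 616 CPM with lenti-TCF7L2, 388, 465 and 410.2 with lenti-NC and 199.8, 195 and 221 with lenti-shTCF7L2 (log2 difference 1.57, SE 0.087, adjusted p = 0.000591). The control lay near the hairpin for the ligand and nearer overexpression for the receptor. Ccl6 had 15.2, 17.4 and 17.1 CPM with lenti-TCF7L2, 3.04, 2.84 and 3.29 with lenti-NC and 2.58, 2.55 and 2.99 with lenti-shTCF7L2, where control and hairpin overlapped (log2 difference 2.62, SE 0.14, adjusted p = 0.000591). Of 16 tested macrophage genes 8 were called higher and 1 lower (median 0.77), 4 of them graded, and 0 lower without any 1 hairpin library. Cd68, a lysosomal protein of macrophages, had 20.9, 20.2 and 25.1 CPM with lenti-TCF7L2, 10.7, 10.2 and 8.86 with lenti-NC and 8.01, 8.83 and 6.84 with lenti-shTCF7L2 (log2 difference 1.49, SE 0.15, adjusted p = 0.00148). The summed macrophage markers given above moved the same way, but they include Cd68 of this list, so sum and list are not independent. The part of macrophages in the chemokine result was not tested.

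Interferon-stimulated genes, which cells switch on against viruses, were called higher in 36 of 41 tested members and lower in 0 (median 1.19). Of all tested genes 13.3% were called higher, and 34.4% of all higher calls were graded. All cultures were given a lentivirus, the control included, and whether they were infected equally was not tested. The list differed from complement in where the control stood. Its median over members, against the hairpin mean, was 0.78, 1.59 and 1.20 (log2) in the 3 lenti-TCF7L2 libraries and 0.96, 0.69 and 0.85 in the 3 lenti-NC libraries, so control and overexpression overlapped. Only 6 of the 36 were graded, a number that rested on single libraries: leaving out lenti-TCF7L2 replicate 1 made it 27, and leaving out lenti-NC replicate 1 made it 15. The number called was 23, 14 and 13 without lenti-shTCF7L2 replicate 1, 2 and 3. Oasl, a 2′-5′ oligoadenylate synthetase-like protein, had 22.5, 34.7 and 26 CPM with lenti-TCF7L2, 17.2, 14.7 and 16.4 with lenti-NC and 5.83, 4.25 and 4.71 with lenti-shTCF7L2 (log2 difference 2.50, SE 0.22, adjusted p = 0.00106). Ifitm1, a membrane protein that blocks viral entry, had 263, 260.4 and 371 CPM with lenti-TCF7L2, 144, 148 and 147 with lenti-NC and 85.9, 76.3 and 82.6 with lenti-shTCF7L2 (log2 difference 1.88, SE 0.16, adjusted p = 0.00106). Gbp2, a guanylate-binding GTPase, had 26.6, 27.8 and 29.8 CPM with lenti-TCF7L2, 22.2, 18.5 and 22.4 with lenti-NC and 10.7, 10.2 and 10.6 with lenti-shTCF7L2 (log2 difference 1.43, SE 0.10, adjusted p = 0.000823). All 3 were graded, with the control past the middle for Oasl and Gbp2. Bst2, or tetherin, which holds budding virus on the cell, had 36.3, 44.5 and 56 CPM with lenti-TCF7L2, 42.3, 41.1 and 40.9 with lenti-NC and 13.7, 11.1 and 11.1 with lenti-shTCF7L2. Its control libraries overlapped overexpression, and the hairpin stood alone below (log2 difference 1.94, SE 0.19, adjusted p = 0.00134). Irf7, the transcription factor that amplifies the response, had 54.6, 113 and 85.6 CPM with lenti-TCF7L2, 69.6, 51.5 and 62.7 with lenti-NC and 28.1, 17.7 and 20.6 with lenti-shTCF7L2, again with control and overexpression overlapping. Bst2 and Irf7 were picked after their values were seen.

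The interferon response element, searched on both strands as GAAA, any 2 bases, then GAAA again, with overlaps counted, was in 21 of the 30 promoter windows found for this list (70%) and in 268 of all 9504 tested windows (2.82%). Rising graded genes held it in 32 of 416 windows (7.69%) and falling ones in 5 of 232 (2.16%). This motif was chosen after the interferon genes had been seen to differ. The 250 bases before the start of 3 members are shown, with the matches in capitals, since they let the element be compared between genes in which the control lay past the middle (Gbp2), nearer the hairpin (Ifitm3) or level with overexpression (Bst2). Gbp2 is at chr2:234005477-234005726 on the plus strand, Ifitm3 at chr1:205541759-205542008 and Bst2 at chr16:18254968-18255217, both on the minus strand.
Gbp2: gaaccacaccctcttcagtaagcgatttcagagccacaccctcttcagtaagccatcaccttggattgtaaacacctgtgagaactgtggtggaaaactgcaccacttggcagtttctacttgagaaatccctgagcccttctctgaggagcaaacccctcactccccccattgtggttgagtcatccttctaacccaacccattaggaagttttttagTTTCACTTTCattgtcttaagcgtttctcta
Ifitm3: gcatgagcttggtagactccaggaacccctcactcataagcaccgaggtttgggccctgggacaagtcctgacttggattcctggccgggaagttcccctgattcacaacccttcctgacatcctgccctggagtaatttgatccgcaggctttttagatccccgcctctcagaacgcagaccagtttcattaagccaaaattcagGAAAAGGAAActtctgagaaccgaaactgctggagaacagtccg
Bst2: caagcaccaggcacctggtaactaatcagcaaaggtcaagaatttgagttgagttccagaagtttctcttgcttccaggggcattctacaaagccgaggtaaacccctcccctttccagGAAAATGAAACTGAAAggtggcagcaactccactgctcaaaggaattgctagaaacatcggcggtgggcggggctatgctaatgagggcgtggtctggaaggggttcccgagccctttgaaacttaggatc
The match began 31 bases before the start in Gbp2, where it is read on the other strand, and 44 bases before it in Ifitm3. Bst2 had 2 overlapping matches, 131 and 125 bases before the start. Ifitm3 had 536, 506 and 807 CPM with lenti-TCF7L2, 286, 305 and 312 with lenti-NC and 231, 195 and 219 with lenti-shTCF7L2 (log2 difference 1.53, SE 0.19, adjusted p = 0.00296), with 3 separate groups, and was picked after its value was seen. Ifitm genes are close relatives and may share reads.

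Antigen presentation genes, which display peptides on the cell surface, were called higher in 11 of 19 tested members and lower in 1 (median 0.81), and 5 were graded. All tested genes had 13.3% called higher, 9.32% lower and 4.59% graded and higher. Without lenti-shTCF7L2 replicate 1, 2 and 3 the number called higher was 6, 7 and 6, and without lenti-TCF7L2 replicate 1 the graded members were 8. Psmb9, a subunit of the immunoproteasome, had 12.9, 15 and 17.5 CPM with lenti-TCF7L2, 8.98, 6.97 and 8.05 with lenti-NC and 4.37, 3.4 and 4.31 with lenti-shTCF7L2 (log2 difference 1.92, SE 0.17, adjusted p = 0.00116). Tap2, a subunit of the peptide transporter, had 32, 36.7 and 35.4 CPM with lenti-TCF7L2, 20.3, 20.8 and 20.9 with lenti-NC and 16.4, 16.9 and 19.8 with lenti-shTCF7L2 (log2 difference 0.98, SE 0.12, adjusted p = 0.00275). The exception, the class II chain RT1-Bb, had 2.13, 2.39 and 3.76 CPM with lenti-TCF7L2, 10.5, 11.4 and 12.2 with lenti-NC and 11.8, 12.7 and 13.1 with lenti-shTCF7L2, low in every overexpression library (log2 difference -2.17, SE 0.22, adjusted p = 0.0016). Class I genes of the RT1 complex are near copies of each other, and their separate counts are uncertain.

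Among matrix genes of fibroblasts most of the called rises were graded. Of 39 tested fibroblast and proteoglycan genes 15 were called higher and 1 lower (median 0.30), and 13 of the 15 were graded. The lower count was 2 without lenti-TCF7L2 replicate 3 and 0 without any 1 hairpin library. Decorin (Dcn, Entrez gene 29139), a small proteoglycan that binds collagen fibrils, had 1552, 1810.0 and 1927 CPM with lenti-TCF7L2, 832, 1059 and 962 with lenti-NC and 522, 467 and 496 with lenti-shTCF7L2 (log2 difference 1.84, SE 0.11, adjusted p = 0.000591). Fibromodulin (Fmod), of the same family, had 577, 781 and 585 CPM with lenti-TCF7L2, 209, 290.4 and 249 with lenti-NC and 109, 92.5 and 97.2 with lenti-shTCF7L2 (log2 difference 2.71, SE 0.15, adjusted p = 0.000591). The control was almost exactly midway for both. Mfap2, of the microfibrils around elastin, had 17.2, 17.5 and 18.3 CPM with lenti-TCF7L2, 8.04, 8.93 and 8.12 with lenti-NC and 6.36, 5.62 and 5.64 with lenti-shTCF7L2 (log2 difference 1.60, SE 0.11, adjusted p = 0.000815). The graded members also took in Fbln1 (2.65), Thbs2 (2.12), Pdgfra (1.71) and Lum (1.65), named after their values were seen. Tcf21 (1.49), a transcription factor of cardiac fibroblasts, had 78.6, 65 and 77.7 CPM with lenti-TCF7L2, 52.9, 54.4 and 51.9 with lenti-NC and 27.9, 26.6 and 24.6 with lenti-shTCF7L2, with the control past the middle. Of 28 tested collagens and matrix proteases 11 were called higher and 0 lower (median 0.31), 5 graded, led by the gelatinase Mmp9 with 54.3, 81.1 and 88.2 CPM with lenti-TCF7L2, 23.6, 27.6 and 22.1 with lenti-NC and 12.6, 13 and 12.5 with lenti-shTCF7L2 (log2 difference 2.57, SE 0.19, adjusted p = 0.000883). Among collagens Col16a1 was called higher with 346, 372 and 353 CPM with lenti-TCF7L2, 188, 222 and 204 with lenti-NC and 218, 194 and 207 with lenti-shTCF7L2 (log2 difference 0.80, SE 0.082, adjusted p = 0.0016), and its control overlapped the hairpin. Col1a1, of the main fibrillar collagen and named after its value was seen, was not called and had 22440, 23820 and 19820 CPM with lenti-TCF7L2, 19030, 17820 and 18160 with lenti-NC and 24130, 22950 and 23330 with lenti-shTCF7L2 (log2 difference -0.08, adjusted p = 0.699), with the control the lowest group. That 11 was 7 without lenti-TCF7L2 replicate 1 or any 1 of the lenti-shTCF7L2 libraries. Without lenti-TCF7L2 replicate 2 and 3, 2 and 4 members were called lower, and without replicate 3, 8 of the higher ones were graded. Of the 7 fibroblast markers summed above, 4 were called higher and all 4 were graded, and the sum overlapped between overexpression and hairpin. Epicardial genes, from the outer layer that gives rise to fibroblasts, had 3 of 11 called higher, all graded, and 2 lower, 1 of them graded (median 0.21). Over all tested genes 13.3% were called higher and 9.32% lower, and this list is small. Aldh1a2, the retinoic acid enzyme of the epicardium, had 48.2, 49.6 and 64 CPM with lenti-TCF7L2, 20.1, 27.5 and 24.7 with lenti-NC and 12.8, 12.6 and 12.1 with lenti-shTCF7L2 (log2 difference 2.12, SE 0.14, adjusted p = 0.000696). Wt1, an epicardial transcription factor, had 20.1, 26.2 and 20.7 CPM with lenti-TCF7L2, 14.9, 17.5 and 17 with lenti-NC and 11.5, 10.3 and 12 with lenti-shTCF7L2 (log2 difference 1.00, SE 0.15, adjusted p = 0.00509). In each the groups were apart and the control was near the middle. Without lenti-TCF7L2 replicate 3 the number of epicardial genes called higher was 5, and without any 1 hairpin library 1 was called lower and 0 of the falls were graded.

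The insulin-like growth factor (IGF) and bone morphogenetic protein (BMP) systems had 13 of 31 members called higher and 4 lower (median 0.36), with 6 and 2 graded. Over all tested genes 13.3% were called higher and 9.32% lower. Igfbp3, the main carrier of IGFs, had 3060.0, 3488 and 3535 CPM with lenti-TCF7L2, 1406, 1884 and 1499 with lenti-NC and 925, 713 and 870.3 with lenti-shTCF7L2 (log2 difference 2.02, SE 0.13, adjusted p = 0.000724). Noggin (Nog), which traps BMPs, was low and had 5.2, 5.03 and 5.91 CPM with lenti-TCF7L2, 1.76, 1.96 and 1.48 with lenti-NC and 0.728, 0.719 and 0.531 with lenti-shTCF7L2 (log2 difference 3.02, SE 0.20, adjusted p = 0.000696). Id3, a target of BMP signalling, had 241, 198 and 280.3 CPM with lenti-TCF7L2, 127, 133 and 132 with lenti-NC and 74.8, 75.3 and 81.3 with lenti-shTCF7L2 (log2 difference 1.64, SE 0.14, adjusted p = 0.00106). In all 3 genes the control lay a little under the middle. Grem1, a BMP antagonist like noggin, and the activin-binding Fstl3 fell instead (-0.64 and -0.69), both graded and both named after their values were seen. The number called higher was 8 and 20 without lenti-TCF7L2 replicates 1 and 3, and 7, 7 and 8 without lenti-shTCF7L2 replicates 1, 2 and 3. The number called lower was 2 without lenti-TCF7L2 replicate 1 and 1, 1 and 0 without those hairpin libraries, where 0 of the falls were graded.

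Most sterol and fatty acid synthesis genes were called lower with lenti-TCF7L2, and 14 of them were graded. Cells make cholesterol and fatty acids under the control of SREBP transcription factors, which are released when sterols are scarce. Of 35 tested members 25 were called lower and 0 higher (median -0.72), against 9.32% called lower among all tested genes, and 14 of the 25 were graded, against 2.4%. The list's median against the hairpin mean was -0.29, -0.44 and -0.33 in the lenti-NC libraries and -0.63, -0.68 and -0.82 in the lenti-TCF7L2 libraries, so the 3 groups were apart. Without lenti-shTCF7L2 replicate 1, 2 and 3 the number called lower was 15, 13 and 13. Scd2, a second desaturase, had 474, 498 and 331 CPM with lenti-TCF7L2, 1173, 890.4 and 1081 with lenti-NC and 1894, 2007 and 1875 with lenti-shTCF7L2 (log2 difference -2.14, SE 0.17, adjusted p = 0.000961). Insig1, which holds SREBP back when sterols are plentiful, had 58.1, 54.3 and 54.4 CPM with lenti-TCF7L2, 88, 81.8 and 92.2 with lenti-NC and 102, 116 and 111 with lenti-shTCF7L2 (log2 difference -0.96, SE 0.087, adjusted p = 0.00115). In both genes the 3 groups were apart. Replicate 3 was the lowest of the overexpression libraries for Scd2, whose length was 5055 bases. Srebf1, which encodes an SREBP, fell by 1.34, the desaturase Fads2 by 1.31 and Hmgcs1 of the sterol pathway by 0.87, all 3 graded. Srebf1, Fads2 and Hmgcs1 were picked after their values were seen. A sterol element searched as TCACNCCAC was in 0 of 24 windows of the list and in 1.2% of all tested windows, which says only that these letters are not in those windows. Acsl3, which activates fatty acids and was graded, and Acsl1 fell by 1.32 and 0.89. Angptl4 rose by 2.62 (SE 0.18, edgeR adjusted p = 0.000724), with control and hairpin overlapping. All 3 belong to the fatty acid oxidation list, in which 11 of 35 tested genes were called lower and 4 higher (median -0.21). Those 11 were 5 and 19 without lenti-TCF7L2 replicates 1 and 3 and 5 without any 1 hairpin library.

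**Figure D4:**
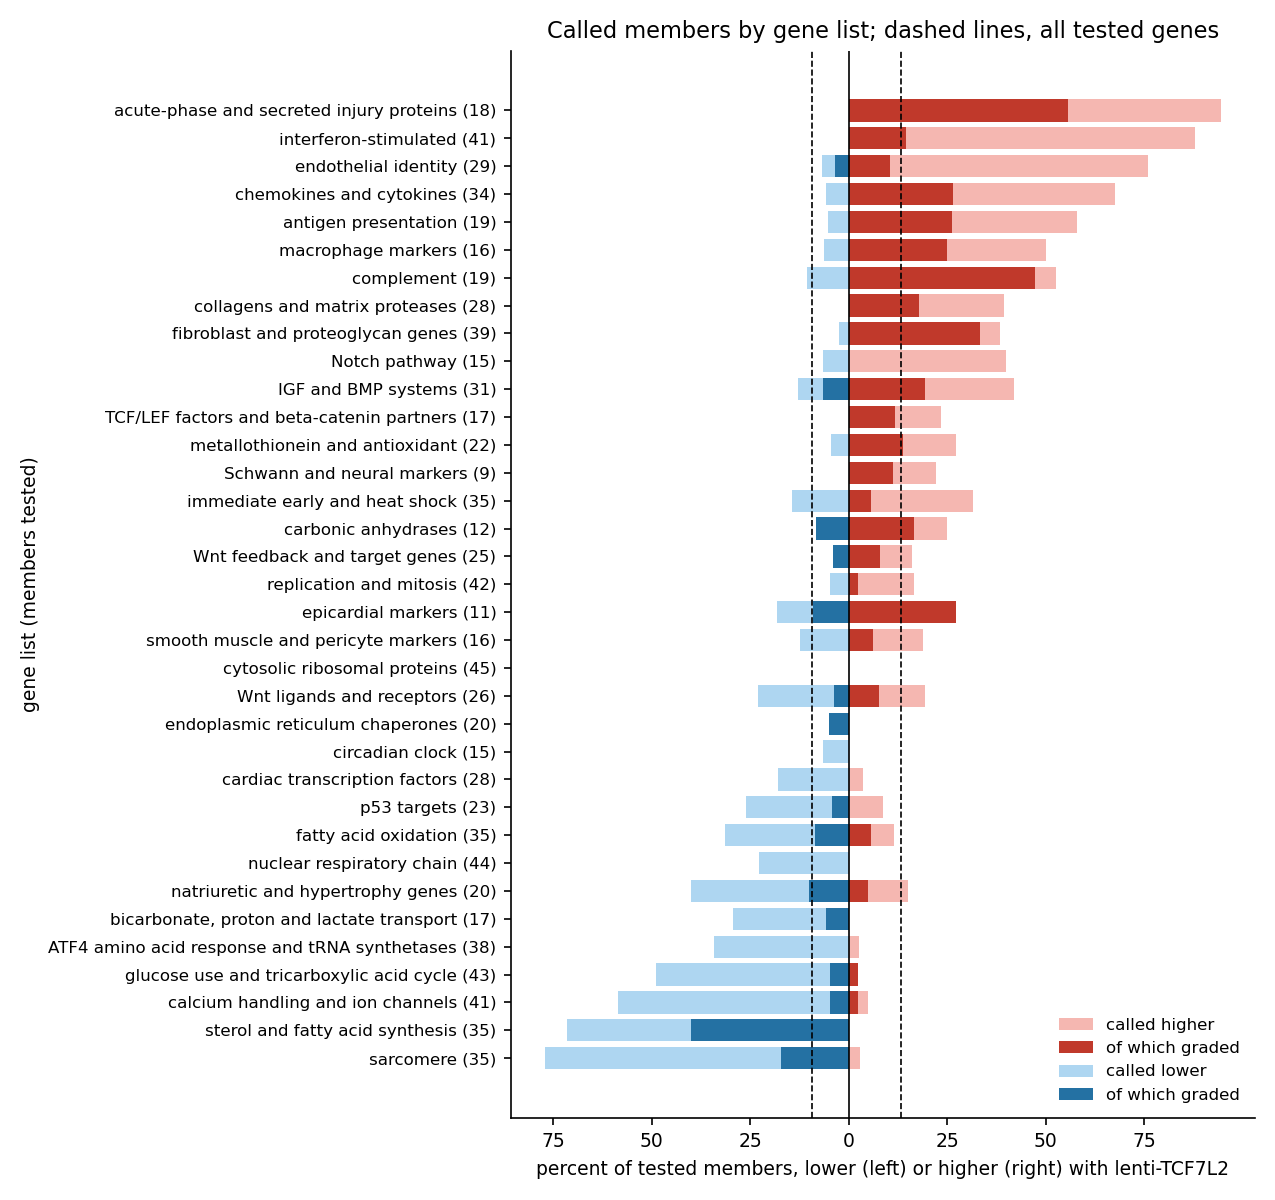
For each of 35 gene lists (rows, with the number of members tested), bars give the percent of tested members called higher (right) or lower (left) with lenti-TCF7L2 than with lenti-shTCF7L2, with the graded part in the darker colour. Dashed lines mark 13.3% and 9.32%, the shares of all tested genes. Complement, acute-phase, fibroblast and sterol genes have much of their bar graded, while calcium, endothelial and interferon genes have little.

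Most contractile genes were called lower with lenti-TCF7L2, and the graded share of these calls was near that of all lower calls (25.8%). Over all tested genes 9.32% were called lower and 2.4% graded and lower. Of 35 tested sarcomere genes 27 were called lower with lenti-TCF7L2 and 1 higher (median -0.84), and 6 were graded. Those 27 were 18 without lenti-TCF7L2 replicate 1 or any 1 hairpin library. The list's median against the hairpin mean was 0.05 to 0.07 in the lenti-NC libraries and -0.93 to -0.80 in the lenti-TCF7L2 libraries. The control thus stood beside the hairpin. Myh6, the α-myosin heavy chain, had 4065, 4110.0 and 4056 CPM with lenti-TCF7L2, 11180, 11490 and 11070 with lenti-NC and 10900, 10830 and 10300 with lenti-shTCF7L2, with the control above both (log2 difference -1.38, SE 0.10, adjusted p = 0.000835). Acta1, the skeletal α-actin, was graded and had 162, 136 and 180.2 CPM with lenti-TCF7L2, 425, 389.6 and 361 with lenti-NC and 637, 700.1 and 653 with lenti-shTCF7L2 (log2 difference -2.05, SE 0.12, adjusted p = 0.000591). Tmod1, which caps thin filaments, had 91.6, 88.5 and 99.6 CPM with lenti-TCF7L2, 183, 189.5 and 185 with lenti-NC and 201, 201 and 200.4 with lenti-shTCF7L2, graded but with the control only 10.3% of the way down (log2 difference -1.10, SE 0.078, adjusted p = 0.000759). Tnnc1, the calcium sensor troponin C, Myl3 and Myl4 were graded with differences of -1.18, -0.98 and -1.49, and were named after their values were seen. The 1 higher gene was the atrial light chain Myl7, with 55.5, 51 and 85.4 CPM with lenti-TCF7L2, 32.4, 32.1 and 34.2 with lenti-NC and 35, 29.3 and 33.1 with lenti-shTCF7L2 (log2 difference 0.99, SE 0.21, adjusted p = 0.0169). Myl7 was named after its value was seen, and no gene of the list was called higher without lenti-shTCF7L2 replicate 1, 2 or 3. These counts go with the summed cardiomyocyte markers given above, which include Myh6 of this list, so sum and list are not independent. What part fewer cardiomyocytes had was not tested.

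Calcium handling and ion channel genes were called lower in 24 of 41 tested members and higher in 2 (median -0.81), with 2 and 1 graded. Over all tested genes 9.32% were called lower, 13.3% higher and 2.4% graded and lower. Without lenti-shTCF7L2 replicate 3 the number called lower was 14, and without lenti-TCF7L2 replicate 3 the number called higher was 5, against 1 without lenti-shTCF7L2 replicate 2 or 3. Casq1, a calcium store protein of the sarcoplasmic reticulum, had 123, 104 and 113 CPM with lenti-TCF7L2, 290.2, 285 and 280.2 with lenti-NC and 328, 345 and 363 with lenti-shTCF7L2 (log2 difference -1.60, SE 0.094, adjusted p = 0.000591). Gja5, connexin 40 of atria, conduction cells and arteries, ran the other way with 233, 268 and 308 CPM with lenti-TCF7L2, 181, 192 and 187 with lenti-NC and 89, 84.4 and 93.4 with lenti-shTCF7L2 (log2 difference 1.61, SE 0.12, adjusted p = 0.000835). Both were graded, Casq1 with the control near the hairpin and Gja5 with it past the middle. Cacnb2, a calcium channel subunit, had 40.9, 45.3 and 38.8 CPM with lenti-TCF7L2, 85.8, 91 and 89.4 with lenti-NC and 85.1, 83 and 87.5 with lenti-shTCF7L2 and was not graded. Among 28 cardiac transcription factors 5 were called lower and 1 higher (median -0.54), against 9.32% and 13.3% of all tested genes, none graded. Those 5 were 3, 10 and 16 without lenti-TCF7L2 replicates 1, 2 and 3, and 2, 3 and 2 without lenti-shTCF7L2 replicates 1, 2 and 3. The 1 higher gene was lost without lenti-TCF7L2 replicate 1 or any 1 hairpin library. Esrrb, an orphan nuclear receptor, led with 0.877, 1.13 and 0.597 CPM with lenti-TCF7L2, 4.8, 4.94 and 4.83 with lenti-NC and 5.96, 5.76 and 4.91 with lenti-shTCF7L2 (log2 difference -2.66, SE 0.24, adjusted p = 0.00118). Of 20 natriuretic and hypertrophy genes 8 were called lower and 3 higher (median -0.35), against the same shares of all tested genes, 2 and 1 graded. Hmox1, haem oxygenase 1, was the graded rise, with 175, 170.2 and 199 CPM with lenti-TCF7L2, 89.8, 117 and 105 with lenti-NC and 83.8, 69 and 82.5 with lenti-shTCF7L2 (log2 difference 1.22, SE 0.11, adjusted p = 0.00116). The graded falls were Acta1 and Rcan1 (-0.88), a calcineurin inhibitor named after its value was seen to complete the count. Leaving out lenti-shTCF7L2 replicate 2 or 3, lenti-NC replicate 1, or either of the first 2 lenti-TCF7L2 libraries made the graded falls 1.

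The genes of glucose use, the tricarboxylic acid cycle and the respiratory chain that passed the test were nearly all lower with lenti-TCF7L2. Of 43 genes of glucose use and the tricarboxylic acid cycle 21 were called lower and 1 higher (median -0.45), with 2 and 1 graded. For all tested genes the shares were 9.32% lower and 13.3% higher, with 2.4% and 4.59% graded. Slc2a4, the insulin-responsive glucose transporter, had 21.8, 18.9 and 16.6 CPM with lenti-TCF7L2, 63.9, 70.2 and 69.4 with lenti-NC and 65.6, 63.6 and 61.8 with lenti-shTCF7L2 (log2 difference -1.73, SE 0.12, adjusted p = 0.000759). Pdha1, of the pyruvate dehydrogenase complex, had 428, 398 and 398 CPM with lenti-TCF7L2, 837, 818 and 834 with lenti-NC and 755, 784 and 791 with lenti-shTCF7L2, with the control above both groups (log2 difference -0.92, SE 0.079, adjusted p = 0.00106). The 21 were 13 without lenti-shTCF7L2 replicate 3, and the higher gene was lost without lenti-TCF7L2 replicate 1 or any 1 hairpin library. Respiratory chain subunits encoded in the nucleus were called lower in 10 of 44 tested members and higher in 0 (median -0.35), none graded. That count rested on lenti-TCF7L2 replicate 3, without which 42 of 44 were called lower. It was 4 without lenti-TCF7L2 replicate 1 or any 1 hairpin library, and 34 with the length adjustment. Ndufs1, of complex I, had 157, 149.6 and 161 CPM with lenti-TCF7L2, 310.0, 318 and 329 with lenti-NC and 278, 285 and 280.4 with lenti-shTCF7L2 (log2 difference -0.84, SE 0.071, adjusted p = 0.00106). Sdha, of complex II, had 253, 239 and 256 CPM with lenti-TCF7L2, 438, 451 and 453 with lenti-NC and 357, 365 and 369 with lenti-shTCF7L2, with the control highest (log2 difference -0.53, SE 0.072, adjusted p = 0.00387).

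Most endothelial genes were called higher with lenti-TCF7L2, and few were graded. Of 29 tested members 22 were called higher and 2 lower (median 1.70), and 3 and 1 were graded. Over all tested genes 13.3% were called higher and 9.32% lower, and 34.4% of all higher calls were graded. The list's median against the hairpin mean was 1.34, 2.02 and 1.88 in the lenti-TCF7L2 libraries and -0.08, 0.14 and 0.12 in the lenti-NC libraries. Pecam1, an adhesion protein between endothelial cells, had 33.3, 50.6 and 55.5 CPM with lenti-TCF7L2, 6.75, 8.59 and 8.93 with lenti-NC and 6.95, 6.87 and 8.16 with lenti-shTCF7L2, where control and hairpin overlapped (log2 difference 2.68, SE 0.22, adjusted p = 0.00104). The graded rises were Apln, the ligand of the apelin receptor, with 26.4, 36.2 and 33.4 CPM with lenti-TCF7L2, 9.12, 14.9 and 11.3 with lenti-NC and 8.61, 6.54 and 8.3 with lenti-shTCF7L2 (log2 difference 2.04, SE 0.17, adjusted p = 0.00106), Plvap, of endothelial diaphragms, with 14.2, 14.7 and 22.6 CPM with lenti-TCF7L2, 3.58, 3.31 and 4.03 with lenti-NC and 2.65, 2.94 and 3.19 with lenti-shTCF7L2 (log2 difference 2.56, SE 0.23, adjusted p = 0.00113), and the TGF-β coreceptor Eng (0.78). The graded fall was Flt4 (-1.41), a receptor of lymphatic vessels, and Eng and Flt4 were named after their values were seen. Without lenti-TCF7L2 replicate 1 or any 1 hairpin library 0 endothelial genes were called lower, so the call of Flt4 was lost each time. Without lenti-NC replicate 1 the graded rises were 8, and without lenti-shTCF7L2 replicate 2 or 3 they were 5. Of 15 Notch pathway genes 6 were called higher and 1 lower (median 0.29), against 13.3% and 9.32% of all tested genes, none graded. Dll4, a Notch ligand of arterial endothelium, had 6.83, 13.4 and 10.2 CPM with lenti-TCF7L2, 0.608, 0.947 and 1.07 with lenti-NC and 0.662, 0.85 and 1.13 with lenti-shTCF7L2 (log2 difference 3.53, SE 0.34, adjusted p = 0.0013), with control and hairpin level. Those 6 were 10 without lenti-TCF7L2 replicate 3 and 3, 2 and 3 without lenti-shTCF7L2 replicates 1, 2 and 3. The summed endothelial markers given above rose too, but they include Pecam1 of the endothelial list, so sum and list are not independent. Their part in the result was not tested.

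In the amino acid response driven by ATF4 the called genes were nearly all lower with lenti-TCF7L2, and the control lay on different sides of the groups. Of 38 tested genes of this response and the tRNA synthetases 13 were called lower with lenti-TCF7L2 and 1 higher (median -0.22), none graded, though 5 falls were graded without lenti-NC replicate 2. Among all tested genes 9.32% were called lower and 13.3% higher. The list's median against the hairpin mean was -0.15 to -0.32 in the lenti-TCF7L2 libraries and -0.38 to -0.61 in the lenti-NC libraries, so by this median the control was the lowest group. Slc7a3, a carrier of basic amino acids, had 14.5, 9.44 and 10.1 CPM with lenti-TCF7L2, 10.2, 8.39 and 10.7 with lenti-NC and 27, 29 and 27 with lenti-shTCF7L2 (log2 difference -1.27, SE 0.18, adjusted p = 0.00423). Lars, leucyl-tRNA synthetase, had 87.4, 84.7 and 86.7 CPM with lenti-TCF7L2, 93.7, 83.5 and 88.9 with lenti-NC and 113, 120.3 and 118 with lenti-shTCF7L2 (log2 difference -0.43, SE 0.072, adjusted p = 0.00788). In both the control overlapped overexpression, below the hairpin. Slc38a2, a glutamine carrier, had 649.7, 658 and 549 CPM with lenti-TCF7L2, 1116, 1117 and 1090.0 with lenti-NC and 972, 1025 and 1012 with lenti-shTCF7L2, with the control highest (log2 difference -0.69, SE 0.10, adjusted p = 0.00516). The 13 were 6 without lenti-TCF7L2 replicate 1 and 4, 3 and 3 without lenti-shTCF7L2 replicates 1, 2 and 3. The call of Lars was lost at an adjusted p = 0.0543 and 0.0539 without lenti-shTCF7L2 replicates 2 and 3.

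Some genes called between the 2 viruses had all control libraries beyond both groups on the same side, at shares near those of all tested genes given above. Ramp3, a partner of the adrenomedullin receptor, had 50.2, 49.9 and 86 CPM with lenti-TCF7L2, 10.6, 11.6 and 9.73 with lenti-NC and 15.6, 15.9 and 15.3 with lenti-shTCF7L2 (log2 difference 2.00, SE 0.23, adjusted p = 0.0023). Cxcr4, the receptor of Cxcl12, had 11, 16.4 and 22.4 CPM with lenti-TCF7L2, 3.31, 3.58 and 3.42 with lenti-NC and 3.97, 4.64 and 4.25 with lenti-shTCF7L2 (log2 difference 1.96, SE 0.27, adjusted p = 0.00403). Cxcl6, a chemokine for neutrophils, had 126, 149.8 and 160.1 CPM with lenti-TCF7L2, 43.8, 48.2 and 45.2 with lenti-NC and 53, 53.9 and 54.5 with lenti-shTCF7L2 (log2 difference 1.44, SE 0.11, adjusted p = 0.000835). In these the control was the lowest group. Cdh5, the cadherin of endothelial junctions, had 23.3, 44.2 and 13.5 CPM with lenti-TCF7L2, 6.21, 7.17 and 7.45 with lenti-NC and 8.08, 8.76 and 8.3 with lenti-shTCF7L2 (log2 difference 1.70, SE 0.41, adjusted p = 0.0283), with overexpression libraries widely spread. Its call was lost at adjusted p values of 0.0702 without lenti-TCF7L2 replicate 1 and 0.103, 0.104 and 0.107 without lenti-shTCF7L2 replicates 1, 2 and 3. On the other side Myl1, a myosin light chain, had 1.25, 0.755 and 1.85 CPM with lenti-TCF7L2, 8.85, 8.45 and 9.19 with lenti-NC and 7.55, 7.13 and 8.3 with lenti-shTCF7L2 (log2 difference -2.55, SE 0.28, adjusted p = 0.00206), and Ank1, an ankyrin of the membrane skeleton, had 2.7, 2.96 and 1.55 CPM with lenti-TCF7L2, 10.7, 9.74 and 11.1 with lenti-NC and 8.81, 9.16 and 8.83 with lenti-shTCF7L2 (log2 difference -1.88, SE 0.24, adjusted p = 0.00303). LOC688553 (-2.01) and Tecrl (-1.95) shared this placing. Tecrl lost its call without lenti-TCF7L2 replicate 1 (adjusted p = 0.0712) and without any 1 hairpin library (0.0993 to 0.105).

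The lists of the Wnt pathway itself are read against 13.3% higher and 9.32% lower among all tested genes. Of 17 TCF/LEF factors and β-catenin partners 4 were called higher, Tcf7l2 among them, and 0 lower (median 0.04). Without lenti-TCF7L2 replicate 3 these were 8 and 2, and without replicate 2, 2 were called lower. Lef1, a relative of TCF7L2 and a target of the pathway, was low, with 1.57, 2.08 and 1.91 CPM with lenti-TCF7L2, 1.69, 1.29 and 1.68 with lenti-NC and 0.596, 0.719 and 0.73 with lenti-shTCF7L2 (log2 difference 1.44, SE 0.24, adjusted p = 0.00741). Control and overexpression overlapped there. Tle3, a Groucho corepressor, had 72.7, 88.1 and 73.1 CPM with lenti-TCF7L2, 53.8, 55.5 and 52 with lenti-NC and 49.7, 49.3 and 51 with lenti-shTCF7L2 and was graded (log2 difference 0.65, SE 0.10, adjusted p = 0.00697). Of 25 feedback and target genes 4 were called higher and 1 lower (median -0.08), shares near those of all tested genes. Sfrp2, a secreted Wnt binder, had 79.2, 77.8 and 95.6 CPM with lenti-TCF7L2, 68.6, 67.9 and 65.6 with lenti-NC and 49.5, 49.8 and 47.4 with lenti-shTCF7L2 (log2 difference 0.79, SE 0.10, adjusted p = 0.00345). Cyr61, a matricellular growth factor, had 614, 569.7 and 582 CPM with lenti-TCF7L2, 476, 471 and 451 with lenti-NC and 374, 398 and 412 with lenti-shTCF7L2 (log2 difference 0.59, SE 0.081, adjusted p = 0.0041). Lgr4, a receptor for R-spondins, had 75.8, 84.9 and 49 CPM with lenti-TCF7L2, 141, 133 and 138 with lenti-NC and 144, 144 and 149 with lenti-shTCF7L2 (log2 difference -1.05, SE 0.20, adjusted p = 0.012). All 3 were graded, and Lgr4 lost its call at adjusted p values of 0.0536 and 0.0568 without lenti-shTCF7L2 replicates 2 and 3. Axin2, the common readout of the pathway, had 2.01, 2.08 and 1.55 CPM with lenti-TCF7L2, 1.22, 2.23 and 1.68 with lenti-NC and 1.66, 1.64 and 1.59 with lenti-shTCF7L2 (log2 difference 0.21, SE 0.20, adjusted p = 0.5), with all 3 groups overlapping. It was picked after its value was seen. The 4 higher targets were 2 without lenti-TCF7L2 replicate 1 or any 1 hairpin library, and the lower ones were 3 and 8 without lenti-TCF7L2 replicates 2 and 3. Of 26 Wnt ligands and receptors 5 were called higher and 6 lower (median -0.17). Frzb, which traps Wnt ligands, was graded and had 37, 42.7 and 52.7 CPM with lenti-TCF7L2, 19.5, 22.3 and 22.4 with lenti-NC and 12.1, 9.55 and 11.4 with lenti-shTCF7L2 (log2 difference 2.02, SE 0.17, adjusted p = 0.00106). Wls, which escorts Wnt ligands out of the cell, had 353, 329.9 and 333 CPM with lenti-TCF7L2, 514, 503 and 507 with lenti-NC and 511, 528 and 545 with lenti-shTCF7L2, and the receptor Fzd6 had 25.1, 27.7 and 26.7 CPM with lenti-TCF7L2, 44.5, 47.1 and 44.6 with lenti-NC and 42.4, 44.7 and 45.6 with lenti-shTCF7L2. For these 2 falls of 0.63 and 0.73 control and hairpin overlapped. Without lenti-TCF7L2 replicate 1 or any 1 hairpin library 2 were called lower, and without lenti-shTCF7L2 replicate 1 or 2, 3 were called higher.

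Among 12 tested carbonic anhydrases 3 were called higher and 1 lower (median 0.16), with 2 and 1 graded. Over all tested genes 13.3% were called higher and 9.32% lower, and this list is small. Car4 (Entrez gene 29242), anchored on the outer cell membrane, had 4.76, 5.79 and 13.1 CPM with lenti-TCF7L2, 1.55, 2.23 and 1.88 with lenti-NC and 0.397, 0.523 and 0.73 with lenti-shTCF7L2. The groups were apart, and overexpression replicate 3 was well above the other 2 (log2 difference 3.83, SE 0.52, adjusted p = 0.00373). Car5b, a mitochondrial form, had 13.5, 13 and 15.5 CPM with lenti-TCF7L2, 9.79, 10.4 and 9.93 with lenti-NC and 7.22, 8.37 and 7.77 with lenti-shTCF7L2 (log2 difference 0.86, SE 0.13, adjusted p = 0.00534) and was picked after its value was seen. Car14, another membrane form, fell, with 15.9, 15.1 and 13.8 CPM with lenti-TCF7L2, 27.8, 32.1 and 31.1 with lenti-NC and 34.8, 34.3 and 33.8 with lenti-shTCF7L2 (log2 difference -1.19, SE 0.10, adjusted p = 0.00106). Car11, a relative without enzyme activity, had 35.2, 29.9 and 38.4 CPM with lenti-TCF7L2, 16.7, 17.5 and 20.1 with lenti-NC and 19.1, 18.8 and 19.6 with lenti-shTCF7L2, with control and hairpin overlapping (log2 difference 0.86, SE 0.12, adjusted p = 0.0041). Of 17 transporters of bicarbonate, protons and lactate 5 were called lower and 0 higher (median -0.43), 1 graded. The 5 were 8 without lenti-TCF7L2 replicate 3. Aqp1, a water channel, had 147, 146 and 125 CPM with lenti-TCF7L2, 294, 260.4 and 267 with lenti-NC and 249.6, 274 and 259 with lenti-shTCF7L2 (log2 difference -0.89, SE 0.096, adjusted p = 0.00181), with the control beside the hairpin. Slc9a3, the graded member, had 0.877, 1.95 and 0.835 CPM with lenti-TCF7L2, 3.44, 3.52 and 3.22 with lenti-NC and 5.56, 4.19 and 6.5 with lenti-shTCF7L2 (log2 difference -2.14, SE 0.36, adjusted p = 0.00799).

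The remaining lists had these counts, against 13.3% higher and 9.32% lower among all tested genes. Metallothionein and antioxidant genes had 6 of 22 called higher and 1 lower (median -0.01), 3 graded, led in size by the zinc-binding Mt2A with 133, 137 and 326 CPM with lenti-TCF7L2, 41.5, 56.9 and 55 with lenti-NC and 34.4, 32.3 and 35.4 with lenti-shTCF7L2 (log2 difference 2.56, SE 0.37, adjusted p = 0.00475). In the immediate early and heat shock list 11 of 35 were called higher and 5 lower (median 0.07), 2 graded. Smooth muscle and pericyte genes had 3 of 16 called higher and 2 lower, and Schwann and neural genes 2 of 9 higher and 0 lower. Genes of replication and mitosis had 7 of 42 called higher and 2 lower (median 0.07), near the shares of all tested genes, and p53 targets 2 of 23 higher and 6 lower (median -0.30). Endoplasmic reticulum chaperones had 1 of 20 called lower, which was Canx, and clock genes 1 of 15, which was Clock. Of these counts many changed by more than 1.5 times when 1 library was left out: the immediate early and heat shock counts ranged from 4 to 14 higher and 2 to 12 lower, those of replication from 2 to 11 higher and 0 to 6 lower, those of p53 targets from 0 to 5 higher and 2 to 12 lower, those of metallothionein and antioxidant genes from 3 to 8 higher and 0 to 5 lower, and those of smooth muscle genes from 1 to 7 higher and 2 to 6 lower. Schwann genes ranged from 1 to 4 higher and 0 to 1 lower, chaperones from 0 to 4 higher and 0 to 3 lower, and clock genes from 0 to 3 higher and 0 to 2 lower. Cytosolic ribosomal proteins had 0 of 45 called (median 0.39), yet 40 were called higher without lenti-TCF7L2 replicate 2, 11 without replicate 3 and 32 with the length adjustment. The fixed lists held 92 of the 536 rising and 38 of the 280 falling graded genes, so most graded genes belong to none of them.

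The level of Tcf7l2 also varied inside the overexpression group, in the order replicate 2, 1, 3. Graded genes did not follow that order more than other genes. Of the rising graded genes 80 of 535 ran in the same order as Tcf7l2 over these 3 libraries and 182 in the reverse order. Among the 280 falling ones 41 ran opposite to Tcf7l2 and 125 in its own order. Over all tested genes 34.1% ran in the order of Tcf7l2 and 34.1% in the reverse. Gene length went with this order: all tested genes in Tcf7l2's order had a median length of 3367 bases and the others 1874. Against the hairpin mean, lenti-TCF7L2 replicate 3 had a median of 0.40 (log2) for 1076 genes of up to 1000 bases and -0.96 for 186 genes of over 8000 bases. For replicate 1 these medians were 0.081 and -0.35, and for replicate 2 they were -0.14 and -0.034. In the lenti-NC and lenti-shTCF7L2 libraries the medians of all length classes lay between -0.085 and 0.066. Calls followed length as well, with 10.6% of the shortest genes called higher and 3.9% lower, against 1.08% and 15.1% of the longest. Graded rises had a median length of 2066 bases and graded falls of 3044, where all tested genes had 2197. With each library adjusted for gene length, 3858 genes were called, 2531 of them among the 2644, and 1023 were graded, 722 of them among the 816. Scd, Mb, Acta1, Insig1, Cfb, Serping1, Dcn, Igfbp3 and Tcf7l2 kept their call and direction under that adjustment and without lenti-TCF7L2 replicate 3.

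**Figure D5:**
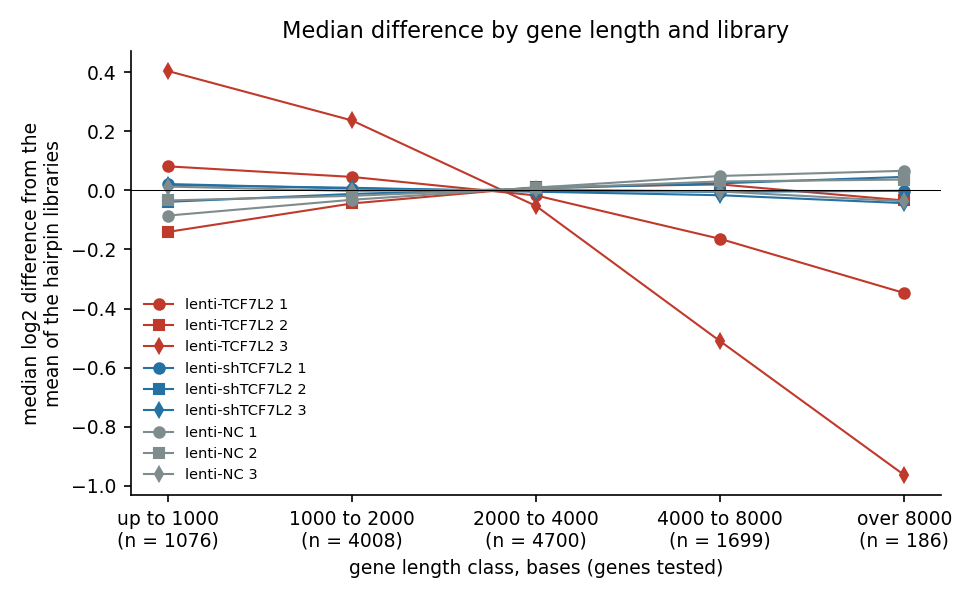
Median log2 difference of tested genes from the mean of the hairpin libraries (y axis) by gene length class in bases (x axis, with the number of genes), 1 line per library. Lenti-TCF7L2 replicate 3 runs from 0.40 down to -0.96, replicate 1 from 0.081 to -0.35, and the other 7 libraries stay near 0.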

How the data were processed

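Poly(A) RNA of 9 libraries was sequenced on a BGISEQ-500, per the labels' protocols. The submitters' processing notes name HISAT2, Bowtie2, RSEM 1.3.1, DESeq2 1.4.5 and build rn6, without roles. Per the file headers, each library's table from the authors gives a gene's expected counts (estimated fragments, not normalised), its length in bases and its FPKM, which divides by length and depth. The tables list only genes with a value; others were set to 0. Between 84.2% and 84.5% of the values were whole, and the rest were rounded. No duplicate libraries were found. Genomic positions in rn6 were not used here.

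Groups came from the sample titles. The fit took the 3 lenti-TCF7L2 and 3 lenti-shTCF7L2 libraries only. Genes passed filterByExpr (11669 kept, 2722 set aside), TMM scaled the libraries, and the quasi-likelihood test of edgeR 4.0.16 in R 4.3.3 compared the groups (2-sided), with Benjamini-Hochberg adjustment over all tested genes and a threshold of 0.05. The biological coefficient of variation was 18.2%. CPM use TMM-scaled sizes of all 9 libraries. Intervals of ratios cover counting error only. A control position uses log2(CPM + 0.1) of group means. Named genes were Tcf7l2, Car2, the 12 largest graded rises and falls and the 4 largest on each side with the control outside (at least 50 counts on average in the higher group), and, in each list, the 3 called genes lowest in adjusted p at most (2 of the highest mean CPM where none was called). Others are marked as picked afterwards. The members, the 36 lists and the rules were chosen with earlier results of these data known, and a list's counts and median describe it without a test.

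Alternatives were other scaling, filters, DESeq2 1.42.0, limma 3.58.1 on log2 FPKM with pseudocounts of 1 and 0.1, all 9 libraries in 1 fit, a replicate block, a length adjustment (lowess on log2 length, span 0.3), each library left out, and 2 other rules for grading. Leaving out a lenti-NC library was added after seeing the data. On simulated data of 11669 genes with 200 changed, edgeR recovered 24.5%, 93.5% and 100% of log2 changes of 0.585, 1 and 2 with a variation of 15%, and 87.5%, 98.5% and 100% with 8%, and 2.23% to 4.31% of calls were false. Both variations lie below the 18.2% fitted here. The simulated variation was equal in both groups and had no length trend, so these rates may not hold for these libraries.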

Additional observations from a re-analysis of the deposited data

How the results depend on the processing

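No gene called in the reported fit and again under another setting changed its direction. The settings share libraries and the groups of called genes did not overlap, so a change was hardly possible. The count of genes higher with lenti-TCF7L2 (1557 as reported) was 984 with the replicate block and 2919 with the length adjustment without lenti-TCF7L2 replicate 3, and ranged from 665 to 2472 with 1 library left out. The count of lower genes (1087) was 696 with the block, 1798 with all 9 libraries in 1 fit, 1652 with the length adjustment, 2580 with it and without lenti-TCF7L2 replicate 3, and 428 to 2298 with 1 library left out. Graded rises (536) numbered 1153 when only the control mean had to lie between the group means and 335 when it had to lie at least 0.25 (log2) from each. Graded falls (280) numbered 645 and 111 under these rules, 516 with the length adjustment without lenti-TCF7L2 replicate 3, and 152 to 464 with 1 library left out, where graded rises ranged from 385 to 740. Deviations of same-numbered libraries correlated at -0.019, 0.096 and 0.115, not all above 0.1, so the numbers were not taken to pair them; lenti-TCF7L2 replicates 2 and 3 correlated best with their own number and replicate 1 with hairpin replicate 2. With the block 24 of 41 interferon genes were called, and Col4a3, Tecrl, Pmp22 and Aen lost their call. DESeq2 called 2875 genes, 2516 of them shared. Klf1, not called, had a log2 difference of 0.05 as reported, -0.055 with the length adjustment, -0.047 with it and without lenti-TCF7L2 replicate 3, -0.048 with it and the block, and -0.105 to 0.247 over the libraries left out. Calls of Clock, Pmp22, Aen, Canx, Irx4, Smtn and E2f1 were also lost without 1 or more libraries, and Rplp0 and Rps2 gained one; the cause was not tested. Higher genes made up 58.9% of the calls, from 51.8% without lenti-TCF7L2 replicate 3 to 63.1% without replicate 1. Low counts limit Car2, Aoc1 and Lrg1, among others. Tmem255a had 4, 4 and 8 counts with the hairpin and 17, 10 and 10 in the control, so its grading also rests on few counts.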

Other observations

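Among graded rises that belong to no list were secreted proteins with known roles in vessels and lipid transport, picked after their values were seen. Agt, angiotensinogen, the precursor of angiotensin, had 62.5, 58.6 and 65.3 CPM with lenti-TCF7L2, 21.4, 27.9 and 21.9 with lenti-NC and 11.4, 8.76 and 11 with lenti-shTCF7L2. The 3 groups were apart (log2 difference 2.59, SE 0.13, edgeR adjusted p = 0.000591). Angpt2, which loosens endothelial cells by blocking the receptor Tek, had 19, 22 and 20.3 CPM with lenti-TCF7L2, 8.51, 10.8 and 7.11 with lenti-NC and 4.04, 4.12 and 5.44 with lenti-shTCF7L2 (2.18, SE 0.16, adjusted p = 0.000835). Apoe, a carrier of lipids between cells, had 249, 269.9 and 439.7 CPM with lenti-TCF7L2, 98.9, 121 and 127 with lenti-NC and 72.9, 61.6 and 68.9 with lenti-shTCF7L2, with overexpression replicate 3 well above the other 2 (2.25, SE 0.23, adjusted p = 0.0016).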
